A study of Homo sapiens with 6 samples.

Results

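The anaphase-promoting complex is a large ubiquitin ligase that triggers the separation of sister chromatids and the exit from mitosis. It marks securin, cyclins and other regulators for destruction by the proteasome. A catalytic pair (the cullin-like ANAPC2 and the RING subunit ANAPC11) is held by a scaffold, and a lobe of subunits with tetratricopeptide repeats binds the coactivators CDC20 and FZR1, which bring in substrates. In all, 10 of its core subunits are described here: ANAPC1, ANAPC2, ANAPC4, ANAPC5, ANAPC7, ANAPC10, ANAPC11, ANAPC13, CDC23 and CDC27. They were read by every probe that the platform annotation assigns to 1 of these symbols, which gave 16 probes for 10 of the 20046 genes with a named probe. The selection was made with the difference between siGRAMD1B and siControl already known, so the values of these subunits in that comparison are a description and carry no test.

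The cells were HeyA8-MDR, a line of human ovarian cancer cells that resists several drugs and derives from HeyA8. One group of 3 arrays came from cells given an siRNA against GRAMD1B (siGRAMD1B, arrays 2, 3 and 4), and the other 3 from cells given a control siRNA (siControl, arrays 1, 2 and 4). GRAMD1B encodes a sterol transfer protein of the endoplasmic reticulum. Both groups share the 1 cell line. Sources used here give neither the chemistry nor the dose or duration of the siRNA treatments behind these arrays. Whether the 3 arrays in each group stand for 3 cultures is not stated, so the p-values may reflect technical spread alone. With 3 arrays a group, precision is limited throughout.

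Intensities were read at 47231 probes. Array medians were 102.7 to 128.8, and the dimmest probe of an array gave 71.7 to 89.8. Levels below are normalized log2 intensities, and every difference is siGRAMD1B minus siControl on that log2 scale. The median of every normalized array was 6.27, so values near 6 lie at the floor of the scale. The single GRAMD1B probe read 6.26, 6.23 and 6.17 in the siGRAMD1B arrays, against 6.42, 6.41 and 6.57 in the siControl arrays. The siGRAMD1B arrays lay below all siControl arrays, but the difference of -0.25 ± 0.10 (SE) did not pass over all probes tested (limma adjusted p = 0.152), and both groups were dim. Of 9 markers listed for ovarian carcinoma and epithelium, 5 were above the 75th percentile of all probes by their brightest probe. These were KRT7, KRT8, KRT18, PAX8 and VIM, of which VIM is not specific to epithelium. KRT19 and MUC16 lay below the median, and the brightest probe of EPCAM stood only at the 57.7th percentile. By the brightest probe, 0 of the 9 rose and 0 fell. KRT8 (0.34, groups apart), KRT7 (0.29) and KRT18 (-0.29) did not pass (limma adjusted p = 0.0636, 0.189 and 0.189). The log2 levels of these 9 markers summed to 79.64 to 80.66 in siGRAMD1B arrays and 80.05 to 80.14 in siControl arrays. Of the markers of other cell types, the leukocyte gene CD68 and the endothelial gene CDH5 were bright, at the 96.5th and 89.6th percentile, and PTPRC, CD3E and LUM lay below the median. The brightest CD68 probe (0.37, limma adjusted p = 0.0228) and the VWF probe (0.38, limma adjusted p = 0.0333) rose. The VWF probe was dim, at the 56.8th percentile, and its siControl arrays read 6.05, 6.18 and 6.13, near the floor. The other 2 CD68 probes, at 0.16 and 0.24, did not pass (limma adjusted p = 0.474 and 0.247). Negative differences that did not pass were those of CD14 (-0.14), CDH5 (-0.18) and DCN (-0.20) at their brightest probes (limma adjusted p = 0.553, 0.378 and 0.278). COL1A1 (-0.09) and the brightest PTPRC probe (-0.01) were also negative without passing (limma adjusted p = 0.72 and 0.967). The DCN probe was dim, at the 50.5th percentile. The log2 levels of the 4 leukocyte markers summed to 30.35 to 30.69 in siGRAMD1B arrays and 30.03 to 30.49 in siControl arrays. Those of the 6 endothelial and fibroblast markers summed to 40.62 to 41.25 in siGRAMD1B arrays and 40.54 to 41.34 in siControl arrays. The part of these markers in the results below was not tested.

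ANAPC11 and ANAPC7 are the subunits whose probes stood apart between the groups, and the 250 bases before a start of each gene are shown for that reason, read 5′ to 3′ from the RefSeq promoter table (GRCh38.p14). The ANAPC11 gene lies at chr17:81890790-81900533. Its first part overlaps ALYREF (chr17:81887835-81891587), which runs the opposite way. Of the 4 annotated ANAPC11 windows, the one shown (chr17:81891473-81891722, plus strand) shares the most sequence with a window of ALYREF. It lies inside the annotated ANAPC11 span, and its first part lies inside ALYREF. The ANAPC7 window is chr12:110403709-110403958, on the minus strand. Capitals mark matches, on either strand, to CCGGAAG (the core bound by ETS factors), CCAAT (the box bound by NF-Y) and TTTGAA (a form of the CHR element of late cell cycle genes).
ANAPC11: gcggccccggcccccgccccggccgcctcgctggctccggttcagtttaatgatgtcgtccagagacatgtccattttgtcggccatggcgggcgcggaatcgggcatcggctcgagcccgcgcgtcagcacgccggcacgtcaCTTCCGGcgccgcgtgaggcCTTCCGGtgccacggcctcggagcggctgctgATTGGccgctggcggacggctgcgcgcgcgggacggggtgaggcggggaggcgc
ANAPC7: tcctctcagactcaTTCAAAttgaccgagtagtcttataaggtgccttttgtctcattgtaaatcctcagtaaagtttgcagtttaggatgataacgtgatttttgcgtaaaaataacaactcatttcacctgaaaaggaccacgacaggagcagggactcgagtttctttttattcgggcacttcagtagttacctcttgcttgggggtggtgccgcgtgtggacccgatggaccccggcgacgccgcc
The ANAPC11 window holds CCGGAAG at 2 places and CCAAT at 1, and the ANAPC7 window holds TTTGAA at 1. The 10 subunit genes have 18 annotated windows, of which some overlap, and CCGGAAG occurs in 4 of them, CCAAT in 6 and TTTGAA in 2. Among all 35116 windows of the same length, 8.52% hold CCGGAAG, 32% CCAAT and 13.3% TTTGAA. A match is a description of these letters and not of binding.

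ANAPC11, the RING subunit that recruits the ubiquitin-conjugating enzyme, had lower signal in siGRAMD1B cells at both of its bright probes. The brighter probe (ILMN_1722102) had deposited intensities of 660.9, 686.8 and 569.9 in siGRAMD1B arrays, against 1164, 1464 and 1528 in siControl arrays. After normalization it read 9.24, 9.14 and 9.26 in siGRAMD1B arrays and 10.32, 10.46 and 10.37 in siControl arrays. The groups did not overlap, and the gap between them was many times the spread within either. The means were 9.22 ± 0.06 in siGRAMD1B and 10.38 ± 0.07 in siControl (SD, n = 3 each), a difference of -1.17 ± 0.10 (SE), or 2.25-fold less signal in siGRAMD1B cells. In rank it was place 4 from the most negative of the 28338 probes tested, which is a description, since the subunit was chosen from this comparison. In bulk RNA, fewer cells that express a gene and less of its RNA per cell cannot be told apart.

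The second bright ANAPC11 probe (ILMN_2343563) ran the same way. Its deposited intensities were 436.7, 475.4 and 404.8 in siGRAMD1B arrays, against 650.3, 811.4 and 722.2 in siControl arrays. Its normalized levels were 8.58, 8.57 and 8.72 in siGRAMD1B arrays and 9.46, 9.60 and 9.25 in siControl arrays. Again every siGRAMD1B array lay below every siControl array, with a wider spread among the siControl arrays. The means were 8.62 ± 0.08 in siGRAMD1B and 9.44 ± 0.17 in siControl (SD, n = 3 each), a difference of -0.81 ± 0.11 (SE) and 1.76-fold less signal in siGRAMD1B cells. This probe stood at place 40 from the most negative. The platform annotation assigns both bright probes to the same RefSeq transcript of ANAPC11.

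The other 3 ANAPC11 probes are annotated to other transcripts of the gene and lay at the floor. ILMN_1753773 read 6.16, 6.12 and 6.24 in siGRAMD1B arrays, against 6.17, 6.37 and 6.19 in siControl arrays, a difference of -0.07. ILMN_1674988 differed by 0.00 and ILMN_1726281 by -0.04, with means at the 14.2th and 5.5th percentile of all probes, and both were too dim to be tested. The groups overlapped at all 3. Signal at this level cannot show a change, so these probes do not bear on whether their transcripts fell.

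**Figure D1:**
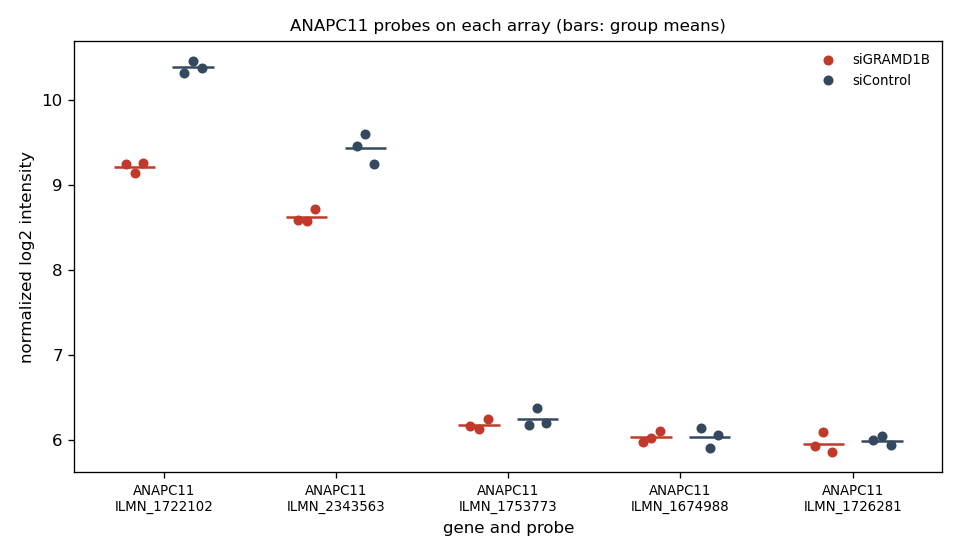
Normalized log2 intensity of the 5 ANAPC11 probes on each array, siGRAMD1B to the left of siControl, with points for the 3 arrays of a group and bars for group means. The groups are apart at the 2 bright probes, with means of 9.22 and 10.38 and of 8.62 and 9.44, and overlap at the 3 probes near 6.

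ANAPC2, the cullin-like partner of ANAPC11 in the catalytic module, differed little. Its brighter probe read 6.79, 6.63 and 6.67 in siGRAMD1B arrays, against 6.93, 6.46 and 6.69 in siControl arrays, a difference of 0.00 ± 0.12 (SE). Its other probe differed by 0.02 ± 0.11 (SE). The groups overlapped at both, and both probes were dim, so a change of modest size would be understated. ANAPC10, which helps the coactivator hold the degron of a substrate, read 9.95, 9.83 and 9.97 in siGRAMD1B arrays, against 9.84, 10.17 and 9.89 in siControl arrays. The difference of -0.05 ± 0.11 (SE) lay within the spread of either group at a bright probe.

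Of the scaffold subunits, ANAPC1 is the largest, and ANAPC4 and ANAPC5 join it under the tetratricopeptide lobe. ANAPC1 had 2 bright probes with differences of -0.08 ± 0.12 and 0.14 ± 0.10 (SE) and overlapping groups at each. The first turned to 0.02 without siGRAMD1B array 4. ANAPC4 read 8.76, 8.61 and 8.57 in siGRAMD1B arrays, against 8.73, 8.57 and 8.80 in siControl arrays, a difference of -0.06 ± 0.10 (SE). ANAPC5 read 10.81, 10.96 and 10.81 in siGRAMD1B arrays, against 10.92, 10.87 and 11.10 in siControl arrays, a difference of -0.11 ± 0.10 (SE). No scaffold probe separated the groups. RefSeq lists pseudogenes of ANAPC1, ANAPC10, ANAPC13 and CDC27, and probes of these genes may also read such copies, so their values are uncertain in that respect.

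ANAPC7, a tetratricopeptide subunit found in vertebrate complexes, was the only subunit beside ANAPC11 whose groups did not overlap at a tested probe. It read 6.95, 6.90 and 7.03 in siGRAMD1B arrays, against 7.36, 7.40 and 7.19 in siControl arrays. The means were 6.96 ± 0.07 in siGRAMD1B and 7.32 ± 0.11 in siControl (SD, n = 3 each), a difference of -0.36 ± 0.10 (SE). The probe is dim, at the 72.9th percentile. Its difference met the threshold of the fit in 6 of 15 alternative settings, against 15 of 15 for both bright ANAPC11 probes. All settings reuse arrays of the comparison from which the subunits were chosen, so these counts are a description and carry no test. Leaving out siControl array 1, siControl array 2 or any single siGRAMD1B array ended the call, and the difference with 1 array left out ran from -0.41 to -0.32. CDC23, another tetratricopeptide subunit, read 10.38, 10.51 and 10.42 in siGRAMD1B arrays, against 10.28, 10.31 and 10.67 in siControl arrays, a difference of 0.02 ± 0.11 (SE). CDC27, which contacts the coactivators, had 1 probe at the floor (6.01, 6.48 and 5.96 in siGRAMD1B arrays, against 6.01, 6.23 and 5.90 in siControl arrays) that was too dim to be tested. ANAPC13, a small subunit that steadies the lobe, was bright and close between groups, with 12.82, 12.86 and 12.77 in siGRAMD1B arrays and 12.86, 12.64 and 12.66 in siControl arrays, a difference of 0.09 ± 0.10 (SE).

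Of the 13 probes of these subunits that were bright enough to be tested, 3 were lower at an adjusted p under 0.05 (2 of ANAPC11 and 1 of ANAPC7) and 0 were higher. Over all 28338 probes tested, 3.21% were lower, 3.89% higher and 7.09% either by the same limma threshold. The groups did not overlap, with siGRAMD1B below, at the same 3 probes, against 11.8% of all tested probes. With siGRAMD1B above, it was 0 of the 13, against 12.3% of all tested probes. Nothing is read from these counts, since the subunits were chosen from this comparison. The median difference of the 13 probes was -0.06, beside 0.00 for all tested probes, and the 10 tested probes of subunits other than ANAPC11 ran from -0.36 to 0.14.

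**Figure D2:**
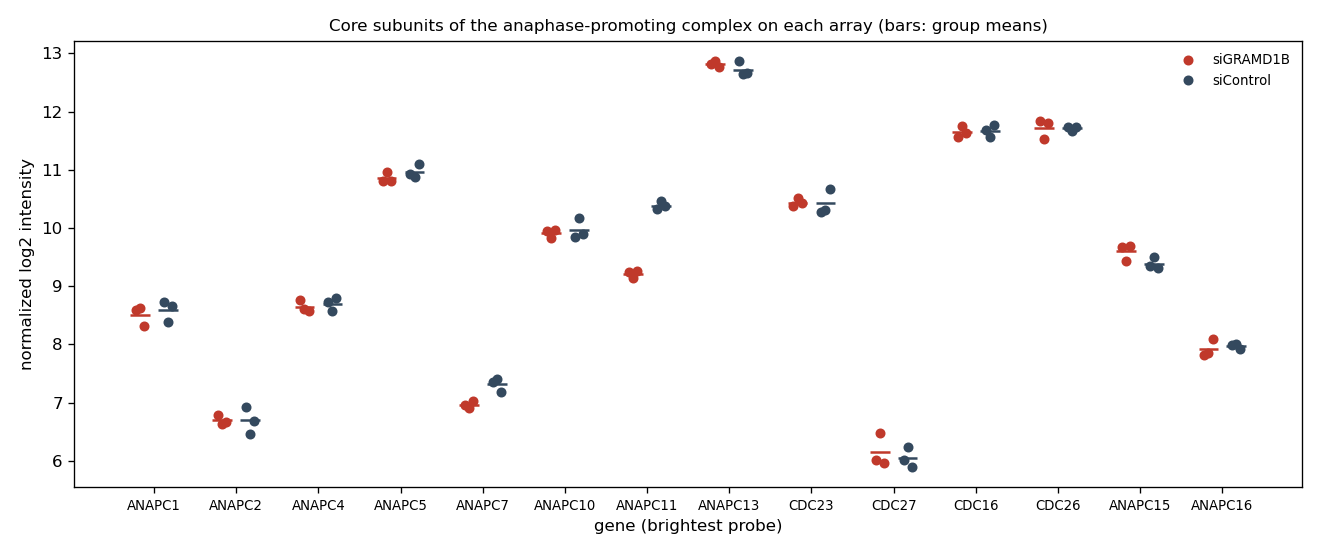
Normalized log2 intensity of 14 core subunits on each array, by the brightest probe of each gene, siGRAMD1B to the left of siControl, with points for arrays and bars for means. ANAPC11 and ANAPC7 show groups that do not overlap, and levels of different genes come from different probes and are not comparable.

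The remaining core subunits, CDC16, CDC26, ANAPC15 and ANAPC16, were not part of the selection and had 6 tested probes, none of which passed. By gene in limma, 0 of 4 were higher, 0 lower, and 0 had an unadjusted p under 0.05. Of all 14261 genes tested, 3329 had such a p. CDC16, a tetratricopeptide subunit, had 3 bright probes with differences of -0.01, 0.03 and -0.08 (limma adjusted p = 0.967, 0.924 and 0.738). CDC26, the small partner that stabilizes CDC16, differed by 0.01 ± 0.11 (SE, limma adjusted p = 0.974). ANAPC15, which promotes turnover of the checkpoint complex on the ligase, read 9.67, 9.44 and 9.69 in siGRAMD1B arrays, against 9.34, 9.50 and 9.31 in siControl arrays. Its difference of 0.22 ± 0.11 (SE) did not pass (limma adjusted p = 0.269), and the groups overlapped. ANAPC16 differed by -0.06 (limma adjusted p = 0.839).

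**Figure D3:**
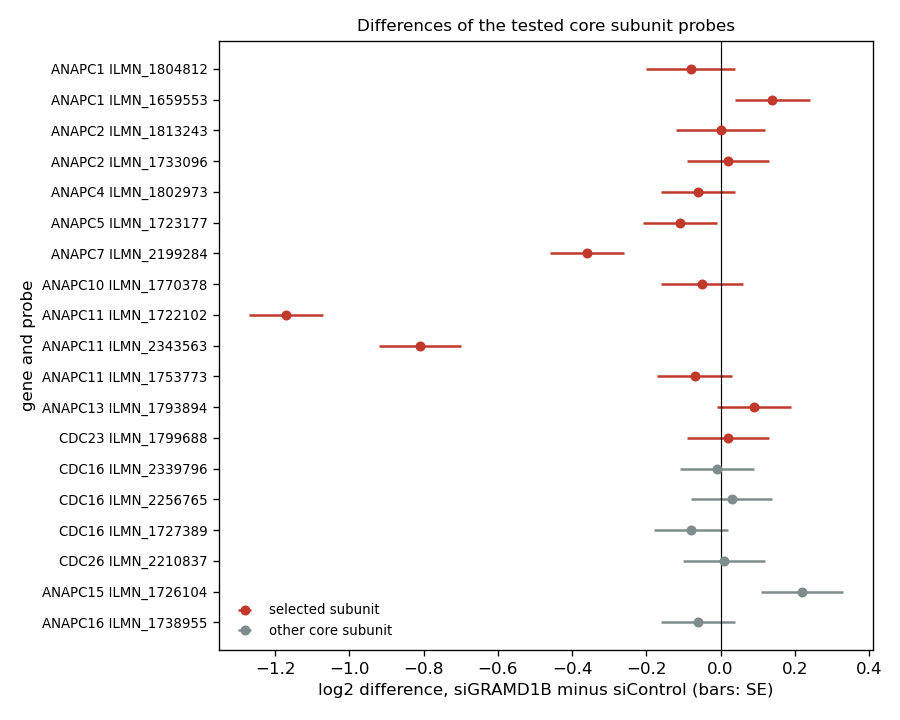
Log2 difference, siGRAMD1B minus siControl, with its standard error for each tested probe of the 10 selected subunits and the other 4 core subunits. The bright ANAPC11 probes lie at -1.17 and -0.81 and ANAPC7 at -0.36, and the others lie between -0.11 and 0.22.

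The proteins that work with the complex were read in fixed lists, with each gene represented by its brightest tested probe. By that rule 5.71% of 14261 genes were higher and 3.72% lower (limma adjusted p under 0.05). An unadjusted limma p under 0.05 was met by 3329 of the 14261, the background for the unadjusted counts of each list. Neither coactivator passed, nor either conjugating enzyme tested, and 0 of these 4 genes had an unadjusted p under 0.05. CDC20, the mitotic coactivator, read 12.73, 12.53 and 12.64 in siGRAMD1B arrays, against 12.83, 12.70 and 12.76 in siControl arrays (difference -0.13, limma adjusted p = 0.539), with overlapping groups. FZR1, the coactivator of late mitosis and G1, was dim and differed by -0.04 (limma adjusted p = 0.868). Of the conjugating enzymes, UBE2C, which starts ubiquitin chains, differed by -0.03 (limma adjusted p = 0.92), and UBE2S, which extends them, by 0.12 at a dim probe (limma adjusted p = 0.632). UBE2D1 had no named probe.

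Among 8 inhibitors and checkpoint genes, 1 fell, 0 rose and 7 did not pass, with a median difference of -0.03 beside 0.01 for all genes. In limma, 3 of the 8 had an unadjusted p under 0.05, beside 3329 of all 14261 genes. The gene that fell was MAD2L1, the checkpoint protein that sequesters CDC20. It read 11.06, 10.86 and 10.87 in siGRAMD1B arrays, against 11.46, 11.54 and 11.49 in siControl arrays, a difference of -0.57 ± 0.10 (SE, limma adjusted p = 0.0015). Its second probe read 9.58, 9.34 and 9.50 in siGRAMD1B arrays, against 10.26, 10.48 and 9.72 in siControl arrays, and also fell, by 0.68 (limma adjusted p = 0.00777), a call lost with a background offset of 16. At both probes the groups did not overlap, and at the second siControl array 4 stood well below the rest of its group.

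For FBXO5 and BUB3, probes of the same gene ran the same way but differed in whether they passed. FBXO5, which encodes the interphase inhibitor EMI1, was lower by its brighter probe without passing (-0.26, limma adjusted p = 0.175), while its second probe fell by 0.48 (limma adjusted p = 0.00913), a call lost with an offset of 16, with the replicate block, and without siControl array 1 or siGRAMD1B array 4 (-0.56 to -0.41 with 1 array left out). The groups did not overlap at either. BUB3, a kinetochore protein of the checkpoint complex, differed by -0.10 at its brightest probe (limma adjusted p = 0.641) and by -0.18 at 2 others. Its dimmest probe (ILMN_2245180) fell by 0.53 (limma adjusted p = 0.00343), with 8.43, 8.53 and 8.32 in siGRAMD1B arrays, against 9.04, 8.84 and 8.98 in siControl arrays. MAD1L1, the kinetochore anchor of MAD2L1, differed by 0.28 at its brighter probe with overlapping groups (limma adjusted p = 0.226). That probe passed without siControl array 2, at 0.44 (limma adjusted p = 0.021). The dimmer MAD1L1 probe differed by 0.03 (limma adjusted p = 0.928), also with overlapping groups.

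Of 25 substrates, 1 rose, 4 fell and 20 did not pass, with a median difference of -0.07. In limma, 11 of the 25 had an unadjusted p under 0.05, beside 3329 of all 14261 genes. ANLN, which encodes the cleavage furrow protein anillin, read 9.86, 9.84 and 9.55 in siGRAMD1B arrays, against 10.51, 10.38 and 10.91 in siControl arrays, and fell by 0.85 ± 0.13 (SE, limma adjusted p = 0.000421). NEK2, a centrosome kinase, read 10.13, 10.18 and 10.13 in siGRAMD1B arrays, against 10.57, 10.45 and 10.59 in siControl arrays, and fell by 0.39 (limma adjusted p = 0.019). CKAP2, a spindle protein, fell by 0.38 (limma adjusted p = 0.0377), and the mitotic kinase gene PLK1 fell by 0.40 (limma adjusted p = 0.0394). The substrate that rose was CDC25A, a phosphatase that activates cyclin-dependent kinases, with 9.10, 9.16 and 9.17 in siGRAMD1B arrays, against 8.66, 8.74 and 8.73 in siControl arrays (0.44 ± 0.10 SE, limma adjusted p = 0.00862). Its dimmer probe differed by -0.06, with overlapping groups (limma adjusted p = 0.849). The second probes of NEK2 and CKAP2 also had overlapping groups and did not pass (-0.27 and -0.30, limma adjusted p = 0.191 and 0.16). NEK2, CKAP2 and PLK1 lost the call in 7, 8 and 7 of 15 alternative settings, and CDC25A in 3, while ANLN and the brighter MAD2L1 probe kept it in all 15. With 1 array left out, NEK2 ran from -0.43 to -0.36 and lost the call without siControl array 1 or any siGRAMD1B array. CKAP2 ran from -0.47 to -0.31 and lost it without siControl array 1 or 4 or any siGRAMD1B array. PLK1 ran from -0.51 to -0.33 and lost it without array 2 or 4 of either group.

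The best known substrates, chosen for mention after their values were seen, did not pass. Securin (PTTG1) differed by -0.03 at each of 2 bright probes, and geminin (GMNN) by 0.13. The cyclins were lower in every siGRAMD1B array than in any siControl array without passing, with CCNA2 at -0.35 (limma adjusted p = 0.071) and CCNB1 at -0.23 (limma adjusted p = 0.205). AURKA and SKP2, chosen in the same way, each had a probe that was not the brightest and fell, by 0.49 and 0.46 (limma adjusted p = 0.00668 and 0.0101), while their brightest probes did not pass (-0.29 and -0.30, limma adjusted p = 0.0766 and 0.131). Both of these calls were lost with an offset of 16 and without siGRAMD1B array 4, and that of SKP2 also with median centring. With 1 array left out the ranges were -0.57 to -0.42 for AURKA and -0.52 to -0.39 for SKP2.

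Proliferation markers gave no call in either direction: 0 of 10 rose and 0 fell by the limma fit, with a median difference of 0.08. An unadjusted limma p under 0.05 was met by 2 of the 10, beside 3329 of all 14261 genes. MCM3 and MCM5, of the replicative helicase, differed by 0.27 and 0.25 (limma adjusted p = 0.14 and 0.16). MCM2 differed by 0.18 and the sliding clamp gene PCNA by 0.15 (limma adjusted p = 0.41 and 0.47). A dimmer PCNA probe ran the other way without passing (-0.21, limma adjusted p = 0.249), with every siGRAMD1B array below every siControl array.

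**Figure D4:**
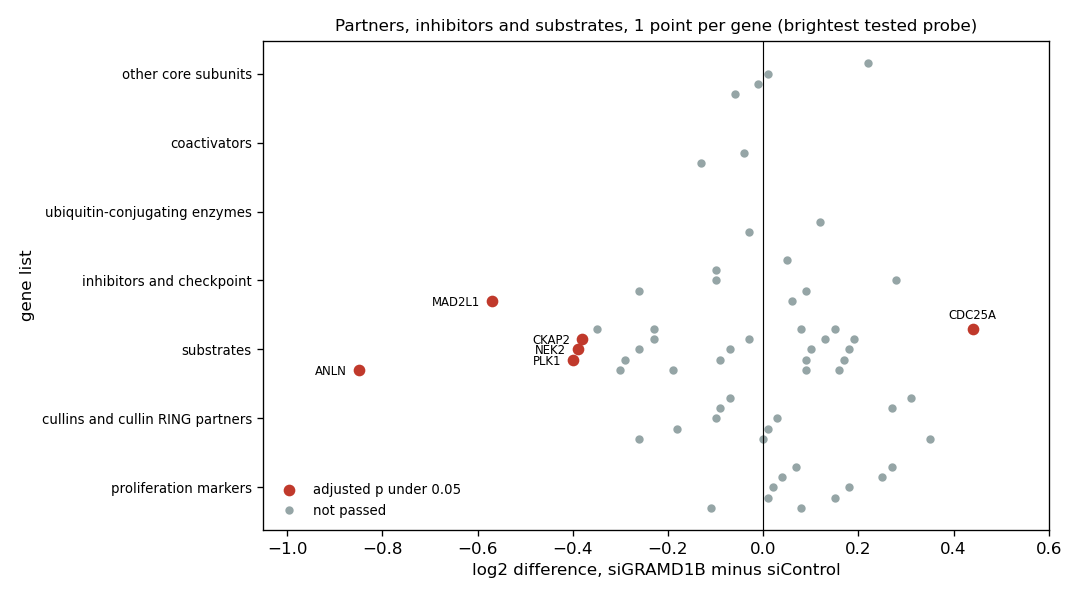
Log2 difference, siGRAMD1B minus siControl, for the other core subunits, coactivators, conjugating enzymes, inhibitors, substrates, cullins and proliferation markers, 1 point per gene by its brightest tested probe. Named red points passed at an adjusted p under 0.05: MAD2L1, ANLN, NEK2, CKAP2 and PLK1 to the left and CDC25A to the right.

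ANAPC2 and ANAPC11 are relatives of the cullins and their RING partners, which form the other large class of RING ubiquitin ligases. Of 11 genes of that class, 0 rose, 0 fell and 11 did not pass by their brightest probe in limma, with a median difference of 0.00. An unadjusted limma p under 0.05 was met by 3 of the 11, beside 3329 of all 14261 genes. RBX1 and SKP1 are named by choice after their values were seen. RBX1, the closest counterpart of ANAPC11 in most cullin ligases, read 12.56, 12.38 and 12.39 in siGRAMD1B arrays, against 12.49, 12.52 and 12.52 in siControl arrays (difference -0.07, limma adjusted p = 0.786). RNF7, its counterpart in CUL5 ligases, was higher in every siGRAMD1B array without passing (0.27, limma adjusted p = 0.138), and passed with the deposited normalized values (0.28, limma adjusted p = 0.049). CUL4B had the largest difference of the list (0.35, limma adjusted p = 0.0703), with its groups apart at both probes. It passed in 5 of 15 alternatives, with values of 0.31 to 0.46 and the highest without siControl array 4 (limma adjusted p = 0.016). The cullins CUL9 and CUL2 differed by 0.31 and -0.26 (limma adjusted p = 0.15 and 0.30). The adaptor SKP1 had a dimmer probe that fell by 0.43 (limma adjusted p = 0.0143) beside a brightest probe at 0.01, a call lost with an offset of 16, median centring or the replicate block, and without siControl array 1 or 2 or siGRAMD1B array 2 or 3 (-0.49 to -0.37 with 1 array left out). The difference between ANAPC11 and these relatives was not tested.

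Of the 6 genes annotated next to ANAPC11, 1 rose and the other 5 did not pass. ALYREF, the mRNA export factor gene whose start lies within 136 bases of the ANAPC11 start shown above, read 9.25, 9.10 and 9.55 in siGRAMD1B arrays, against 9.67, 9.75 and 9.20 in siControl arrays. The groups overlapped and the difference of -0.24 ± 0.14 (SE) did not pass (limma adjusted p = 0.375). On the other side, PCYT2, an enzyme of phosphatidylethanolamine synthesis, was lower in every siGRAMD1B array at its brighter probe without passing (-0.14, limma adjusted p = 0.52), and NPB and SIRT7 differed by 0.01 and -0.12 (limma adjusted p = 0.979 and 0.657). ARHGDIA differed by -0.06 (limma adjusted p = 0.833), and P4HB, a protein disulfide isomerase gene, rose by 0.41 (limma adjusted p = 0.0129).

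Among 19605 named probes tested, the 3 whose levels ran most like the brighter ANAPC11 probe over the 6 arrays were those of ADAM17, DCTPP1 and CDKN1C. Their Pearson correlations were 0.9986, 0.998 and 0.9974. These correlations across 6 arrays mostly restate that all of them differ between the same groups, with differences of -0.40 for ADAM17, -1.07 for DCTPP1 and -0.90 for CDKN1C. They are given as a description.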

How the data were processed

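Per the labels' protocols, biotin-labelled cRNA was made from total RNA with an Illumina amplification kit. The submitters' processing notes name BeadStudio. The deposited intensity table holds linear values that were not normalized between arrays. Its header has 1 name too many, so array names were shifted back by 1 field, which was checked against the second table (Spearman's rho 1.00 across probes for the same array, at most 0.85 for another). The second table holds the authors' deposited log2 values, with 1 distribution on every array. Their normalization method is not stated in the labels. The table carried no detection p-values. Intensities were corrected by limma's normexp (offset 50), quantile-normalized and put on the log2 scale, so differences of dim probes are understated. The 28338 probes with a mean above the 40th percentile (6.16) were tested with lmFit and eBayes (limma 3.58.1 in R 4.3.3, 2-sided, 17.9 degrees of freedom), adjusted by Benjamini-Hochberg over all of them.

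Gene symbols came from the platform annotation (30113 probes with 1 symbol, 8 with several, 17110 unnamed here). Named genes were all members, GRAMD1B, and in each list every called gene plus those of lowest p up to 4 in all. The rule also took the 3 nearest genes with a named probe on each side of ANAPC11. It further took the 3 probes most correlated with the brighter ANAPC11 probe. PTTG1, GMNN, CCNA2, CCNB1, AURKA, SKP2, RBX1, SKP1 and the cell type markers were named outside this rule. The members and lists were chosen with earlier results of these data known. Alternatives were offset 16, no background correction, median centring, the deposited normalized values, other filters, trend and robust options, array weights, a replicate block and leaving out each array. The procedure was tested on simulated data.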

Additional observations from a re-analysis of the deposited data

How the results depend on the processing

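The bright ANAPC11 probes kept their direction and threshold in all 15 alternatives, with differences from -1.22 to -1.12 and from -0.90 to -0.73. ANAPC7 ran from -0.47 to -0.26. These alternatives reuse arrays of the comparison from which the subunits were chosen, so they describe dependence on processing and carry no test. The count of subunit probes past the threshold was 3, and 2 or 3 in every alternative. Over all probes, 1101 were higher and 909 lower. An offset of 16 gave 449 and 234, so that 65.7% of called probes were higher in place of 54.8%, and median centring gave 603 and 419. Leaving out 1 array gave 667 to 1151 higher and 450 to 1036 lower. Of 62 pathway genes tested, 6 were called (1 higher and 5 lower), beside 814 higher and 531 lower of all 14261 genes, a similar share. That count became 2 under the offset of 16, 2 with median centring and 10 with the deposited normalized values. It was 3 to 7 with 1 array left out (3 without siGRAMD1B replicate 2 or siGRAMD1B replicate 4). The share over all genes was not computed for the alternatives, so nothing is read from these counts. The replicate block gave 578 probes higher, 409 lower and 3 pathway genes called. Only the numbers 2 and 4 occur in both groups. Deviations from group means correlated at 0.02 and -0.15 between same-numbered arrays, and at -0.18 to 0.19 between others. With so few arrays these values cannot decide whether same-numbered arrays belong together, and the labels do not say. Some differences near 0 changed sign without passing: with 1 array left out CDC16 ran from -0.07 to 0.04 (0.03 among them), CDC26 from -0.05 to 0.11 (-0.03 and -0.01 among them), FZR1 from -0.10 to 0.01 and UBE2C from -0.08 to 0.02. CDC26 turned to -0.04 with median centring, and UBE2C to 0.04 with the replicate block. Over all alternatives ANAPC1 (-0.18 to 0.02 at 1 probe), ANAPC2 (-0.11 to 0.15 and -0.05 to 0.09), ANAPC10 (-0.11 to 0.05), CDC23 (-0.09 to 0.14), CDC27 (-0.06 to 0.20) and the ANAPC11 probes too dim to test (-0.07 to 0.06 and -0.10 to 0.02) also crossed 0. The cause of these shifts was not tested. Low signal over background limits CDC27, ANAPC2 and 3 ANAPC11 probes.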
